A study of Pleurotus ostreatus with 9 samples.

Results

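Mycelium of the oyster mushroom Pleurotus ostreatus grown with butyl benzyl phthalate (BBP) together with piperonyl butoxide (PB) was compared with mycelium grown without either chemical. The comparison used 6 libraries, 3 with both chemicals and 3 controls, and covered the 9397 protein-coding genes, of 10623 in the table, whose mean expression over all 9 libraries of the study was at least 1 FPKM (fragment counts scaled by gene length and by library total). The remaining 1226 protein-coding genes were below that level and were not tested.

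All cultures were of strain GEMB-PO1, grown in shaken liquid medium with glucose, yeast extract and peptone at 28 °C, and mycelium was collected after 3 days. The control cultures received neither chemical, and the labels give no vehicle. The treated cultures had BBP and 1 mM PB, with the BBP dose given as 50 mg/L by the series design and as 200 mg/L by the sample protocol. A group of 3 cultures with BBP alone stands beside these and shows the level at which each gene lay without PB. The study calls the 3 cultures of each group biological replicates, and no library with PB alone was analysed here, so that the part of BBP, the part of PB and the part of the combination cannot be told apart in this comparison. All libraries came from whole mycelium, in which fewer cells of a kind and less RNA per cell cannot be told apart.

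BBP is a phthalate ester used as a plasticizer. Fungi can split such esters with esterases into phthalic acid and the alcohols butanol and benzyl alcohol, and can oxidise foreign compounds with cytochrome P450 monooxygenases, which insert an oxygen atom into their substrates with electrons from NADPH. PB is a methylenedioxyphenyl compound that inhibits P450 enzymes and is used as a synergist of insecticides. Pleurotus ostreatus is a white-rot fungus, known for the laccases and peroxidases with which it attacks lignin, for a large family of P450 genes, and for hydrophobins, small secreted proteins that coat hyphae and make them water-repellent.

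Total counts per library ranged from 38098599 to 49161706. The study gives all libraries the same batch label. In a principal component analysis of log2(FPKM + 1), the leading component took up 61.3% of the variance and separated controls from libraries with both chemicals, with the libraries of BBP alone between. Scaling factors by TMM, which weigh each library by its typical gene, were 0.982 to 1.129 in control and 0.918 to 0.942 with both chemicals. The vegetative mycelium marker Vmh2 was at 570 to 843 FPKM in control and at 0 to 0.767 FPKM with BBP and PB, so that this marker of the labelled tissue was nearly absent from the treated group. Of the fruit body markers, a fruit body specific hydrophobin was at 0.132 to 0.237 FPKM in control and 0.179 to 0.569 FPKM with both chemicals, and genes for an ostreolysin-like protein and for pleurotolysin B stayed at 2.10 to 11.8 FPKM in both groups.

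Of the 9397 genes, 1871 (19.9%) were higher and 1995 (21.2%) lower with BBP and PB than in control at a Benjamini-Hochberg adjusted p under 0.05 in edgeR's quasi-likelihood test, together 41.1%. These shares are the background for every count of a gene group given here. A change of at least 1 log2 unit was reached by 770 higher genes (8.19%) and 786 lower genes (8.36%), and the median log2 change of all tested genes was -0.038. Scaled by library size alone, the whole distribution moved by -0.22 log2 units, and 1195 genes were higher and 3183 lower. A list whose median lies close to 0 can change sign with this scaling, which is said for the lists whose median is given. The medians of the laccase, DNA replication and ubiquinone lists, which are not given, also turned from positive to negative. In FPKM, which follow the library totals, the 3 libraries of each group did not overlap for 57.2% of genes, 17.1% higher and 40% lower with both chemicals.

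**Figure D1:**
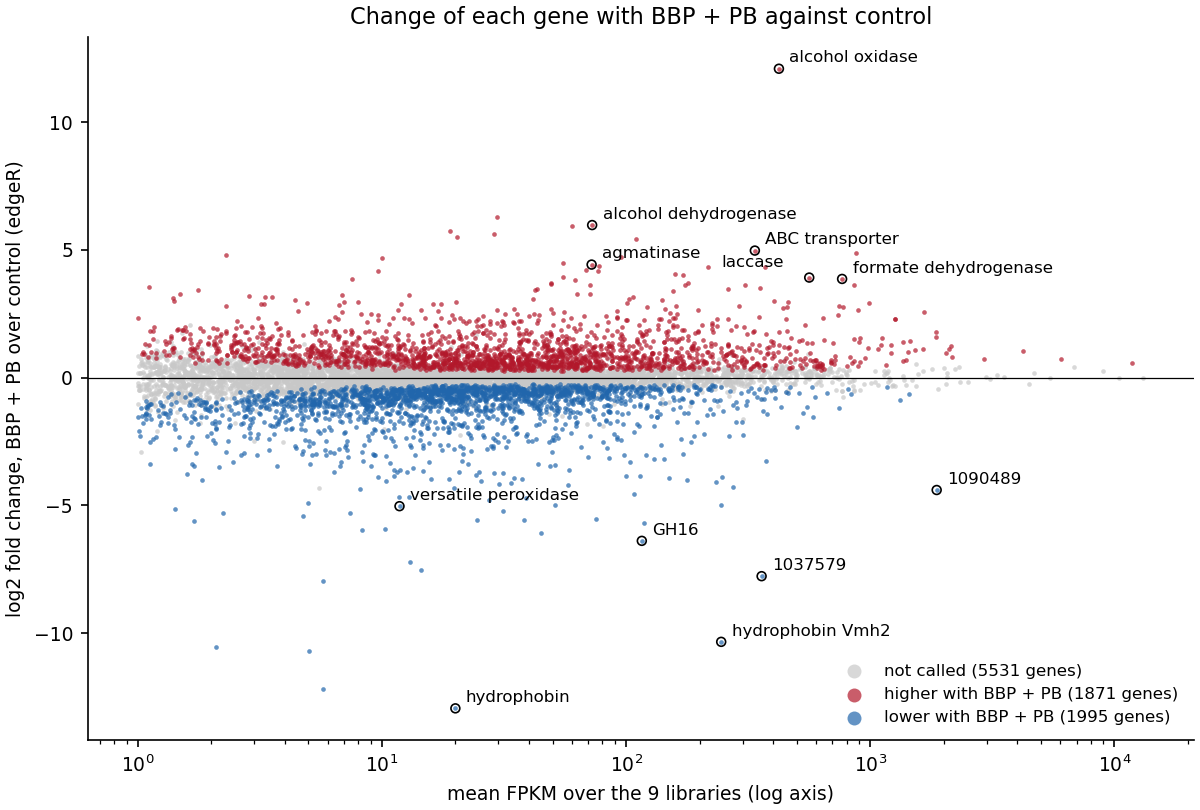
Log2 fold change of BBP with PB over control (edgeR) against mean FPKM over the 9 libraries on a log axis, 1 point per gene, red for higher (1871 genes), blue for lower (1995 genes) and grey for not called. Circled genes are named in the text: an alcohol oxidase stands above all other genes at 12.09, and the lowest points, including a hydrophobin, are genes with 0 counts in all libraries with PB, whose plotted value depends on the prior count and is no bound.

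Genes annotated for the oxidation of alcohols through aldehydes to formate were among those that rose. Alcohol oxidases turn short alcohols such as methanol into aldehydes and hydrogen peroxide. Formaldehyde is then bound to glutathione, oxidised by a glutathione-dependent formaldehyde dehydrogenase, released as formate by S-formylglutathione hydrolase, and formate is oxidised to carbon dioxide by formate dehydrogenase.

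The alcohol oxidase encoded by PLEOSDRAFT_1110004 (EC 1.1.3.13) measured 0.342, 0.224 and 0.395 FPKM in control and 1155, 1407 and 1175 FPKM with BBP and PB. It was nearly absent from all 3 controls and abundant in all 3 treated libraries, and its rise was the largest of the 9397 tested genes (log2 fold change 12.09 ± 0.577, adjusted p = 8.95e-07). With BBP alone it was at 29.7, 8.99 and 25.2 FPKM, above every control and below every library with PB (log2 fold change 5.97 ± 0.441, adjusted p = 5.3e-05 for BBP with PB against BBP alone, a comparison in which 20.5% of genes were called and 9.99% were higher). The other 3 tested genes with the same annotation did not rise. PLEOSDRAFT_1109402 measured 130.4, 129 and 88.7 FPKM in control and 19.7, 20.7 and 29.1 FPKM with both chemicals and fell without overlap (log2 fold change -2.13 ± 0.351, adjusted p = 0.00117). Neither PLEOSDRAFT_1067243 (log2 fold change 0.38 ± 0.374, adjusted p = 0.445) nor PLEOSDRAFT_1113777 (log2 fold change -0.20 ± 0.241, adjusted p = 0.541) passed the test. Whether reads could be shared between genes of the same product, here and in the families described next, was not tested, because no sequences were used here.

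All 6 tested genes for alcohol dehydrogenases, which turn alcohols into aldehydes and back, were higher. Their median log2 change was 1.03, and 6 of 6 were also called under library-size scaling. The strongest, PLEOSDRAFT_1052916, measured 3.35, 4.17 and 3.55 FPKM in control and 203, 198 and 201 FPKM with both chemicals. The treated libraries lay close together and far above the controls (log2 fold change 5.97 ± 0.354, adjusted p = 2.56e-06), and also above the libraries with BBP alone, at 8.59, 22.1 and 10.3 FPKM. The most abundant of them, PLEOSDRAFT_1091892, went from 1340.0 ± 242 to 2499 ± 311 FPKM (mean ± SD, n = 3; log2 fold change 1.1097 ± 0.166, adjusted p = 0.000676) and was at 2491 ± 340.4 FPKM with BBP alone, where the step to BBP with PB did not pass the test (log2 fold change 0.11 ± 0.164, adjusted p = 0.683).

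The formaldehyde dehydrogenase gene PLEOSDRAFT_1063808 (EC 1.1.1.284), also counted among the 6 alcohol dehydrogenases, measured 243, 235 and 168 FPKM in control and 736, 657 and 559 FPKM with both chemicals. Every treated library exceeded every control (log2 fold change 1.793 ± 0.242, adjusted p = 0.000369). S-formylglutathione hydrolase, PLEOSDRAFT_1054127, went from 31.8 ± 3.72 to 68.9 ± 6.57 FPKM (log2 fold change 1.33 ± 0.107, adjusted p = 1.87e-05). Formate dehydrogenase, PLEOSDRAFT_1071241, measured 189, 138 and 70.5 FPKM in control, 466, 456 and 465 FPKM with BBP alone and 1677, 1819 and 1618 FPKM with BBP and PB. The groups were ordered without overlap, and the difference from control (log2 fold change 3.86 ± 0.345, adjusted p = 3.34e-05) and from BBP alone (log2 fold change 1.99 ± 0.319, adjusted p = 0.00253) both passed the test. The wider KEGG methane pathway, which holds these genes, was mixed, with 9 of 23 higher and 7 lower and a median of 0.16, or 8 and 9 with a median of -0.05 under library-size scaling.

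Catalase, which splits hydrogen peroxide, was represented by a single tested gene, PLEOSDRAFT_1090819. It measured 207, 184 and 265 FPKM in control and 440.0, 589 and 641 FPKM with both chemicals, with no overlap (log2 fold change 1.56 ± 0.282, adjusted p = 0.00199). The libraries with BBP alone, at 779.9, 370.0 and 796 FPKM, spanned a wider range than the treated group and the difference did not pass the test (log2 fold change -0.12 ± 0.276, adjusted p = 0.798). Of 5 superoxide dismutase genes (EC 1.15.1.1) 2 rose and none fell. The most abundant, PLEOSDRAFT_1095940, rose from 978 ± 142 to 2561 ± 240.2 FPKM (log2 fold change 1.597 ± 0.165, adjusted p = 8.18e-05). The mitochondrial alternative oxidase PLEOSDRAFT_1106868, which passes electrons to oxygen without pumping protons, rose from 156 ± 36.2 to 488 ± 90.2 FPKM (log2 fold change 1.84 ± 0.223, adjusted p = 0.000194).

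Of 20 aldehyde dehydrogenase genes, which oxidise aldehydes to acids, 10 were higher and 2 lower, with a median log2 change of 0.57, and 8 were higher and 3 lower under library-size scaling. PLEOSDRAFT_1108860 (EC 1.2.1.3) measured 9.59, 8.73 and 11.6 FPKM in control and 101, 116 and 120.4 FPKM with both chemicals. Every treated library was far above every control (log2 fold change 3.70 ± 0.342, adjusted p = 4.12e-05). PLEOSDRAFT_1090768, with the same enzyme number, rose from 121 ± 65.5 to 836 ± 72.6 FPKM (log2 fold change 3.005 ± 0.381, adjusted p = 0.000255), and the succinate-semialdehyde dehydrogenase gene PLEOSDRAFT_1052335, whose enzyme closes the route from 4-aminobutyrate to the citrate cycle, from 22.6 ± 5.54 to 166 ± 11.8 FPKM (log2 fold change 3.09 ± 0.227, adjusted p = 1.02e-05). The most abundant aldehyde dehydrogenase in control, PLEOSDRAFT_1045544, moved the other way, from 1655 ± 94.4 to 783 ± 101 FPKM (log2 fold change -0.87 ± 0.162, adjusted p = 0.00229).

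**Figure D2:**
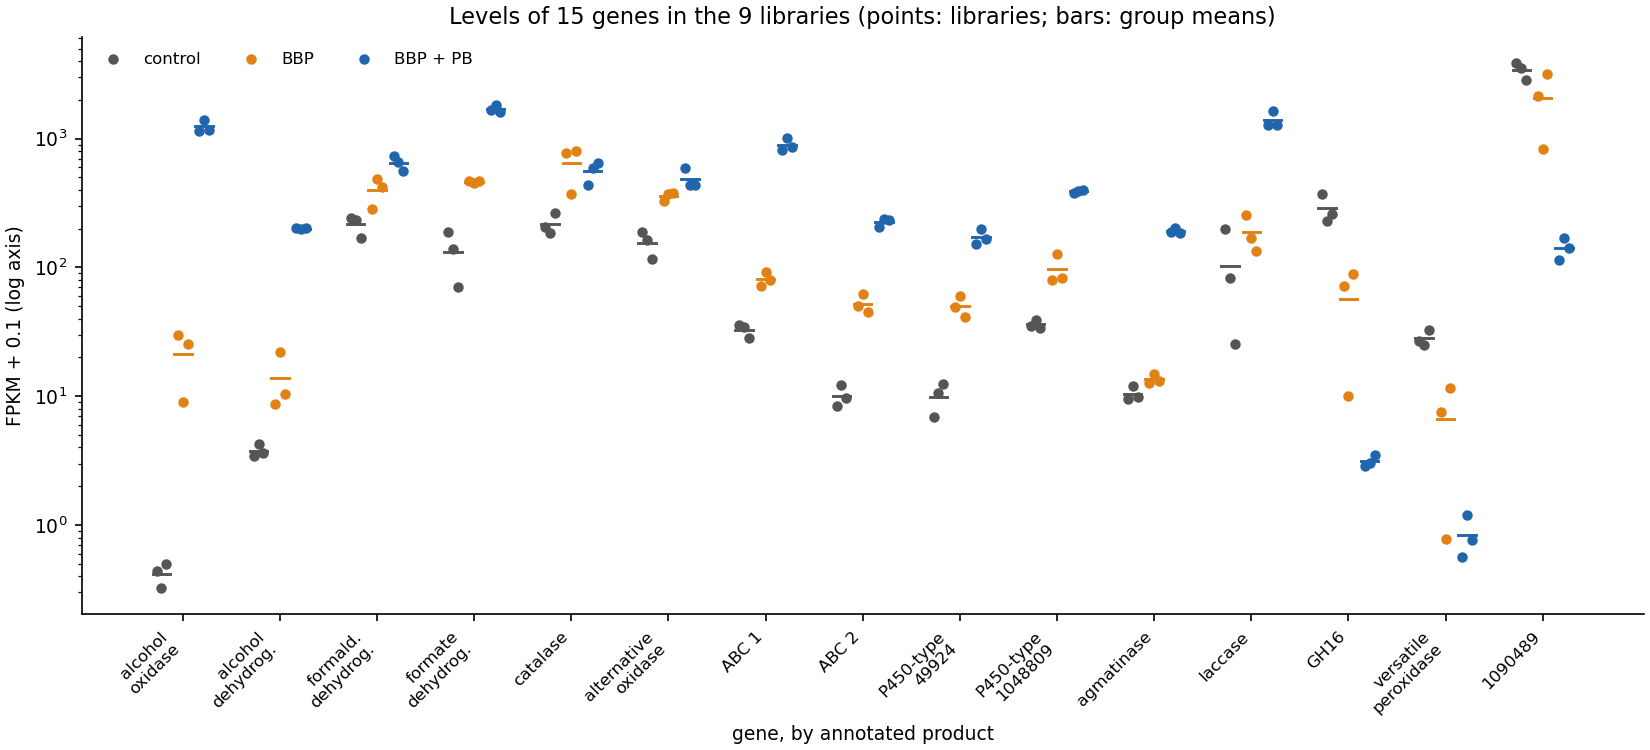
FPKM + 0.1 on a log axis for 15 genes named by annotated product, with 1 point per library and bars for the means of control (grey), BBP alone (orange) and BBP with PB (blue). From alcohol oxidase (0.342 FPKM in control replicate 1 and 1155 FPKM in replicate 1 of BBP with PB) to laccase the treated libraries lie above the controls, and for the glycoside hydrolase of family 16 (GH16), the versatile peroxidase and the unannotated gene PLEOSDRAFT_1090489 they lie below. ABC 1 is PLEOSDRAFT_1035372 and ABC 2 is PLEOSDRAFT_1056093.

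Genes for the export and oxidation of foreign compounds rose in part. ABC transporters use ATP to pump compounds across membranes, and the pleiotropic drug resistance type (KEGG K08712) is known in yeasts for exporting antifungal drugs. PLEOSDRAFT_1035372, of this type, measured 35.4, 34.6 and 28.3 FPKM in control, 71.5, 92.6 and 80.1 FPKM with BBP alone and 811, 1018 and 859 FPKM with BBP and PB. Each group lay above the one before it without overlap (log2 fold change 4.97 ± 0.195, adjusted p = 3.48e-07 against control, log2 fold change 3.56 ± 0.182, adjusted p = 6.05e-06 against BBP alone). PLEOSDRAFT_1056093, of the same type, measured 8.35, 12.2 and 9.51 FPKM in control and 204, 237 and 233 FPKM with both chemicals. It too rose without overlap (log2 fold change 4.71 ± 0.173, adjusted p = 2.44e-07), with BBP alone between at 49.8, 61.6 and 45.3 FPKM. In the whole ABC list 14 of 32 genes were higher and 3 lower, against 19.9% and 21.2% of all genes. Its median of 0.13 became -0.08 under library-size scaling, where 12 were higher and 5 lower.

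P450-type genes, taken by their ontology terms for iron binding, haem binding and oxidation of paired donors, changed in both directions, with 24 of 89 higher and 22 lower against 19.9% and 21.2% of all genes. Their median was 0.11, and -0.11 under library-size scaling, where 17 were higher and 31 lower. PLEOSDRAFT_49924 measured 6.81, 10.5 and 12.2 FPKM in control, 49.3, 59.9 and 41.1 FPKM with BBP alone and 152, 199 and 168 FPKM with BBP and PB. It was ordered control, BBP, BBP with PB with no overlap (log2 fold change 4.36 ± 0.216, adjusted p = 1.13e-06 against control, log2 fold change 1.89 ± 0.194, adjusted p = 0.000221 against BBP alone). PLEOSDRAFT_50083 went from 12.002 ± 0.429 to 148.3 ± 14.9 FPKM (log2 fold change 3.83 ± 0.204, adjusted p = 1.57e-06), and PLEOSDRAFT_1048809 from 36.1 ± 2.84 to 390.1 ± 12.7 FPKM (log2 fold change 3.64 ± 0.194, adjusted p = 1.57e-06). Both were also higher than with BBP alone (adjusted p = 5.27e-05 and 0.000107).

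P450-type genes that fell included PLEOSDRAFT_1034967, which measured 167, 43.1 and 24.3 FPKM in control and 5.34, 6.16 and 4.63 FPKM with both chemicals. The controls spread widely, with replicate 1 far above the others, but none overlapped the treated group (log2 fold change -3.72 ± 0.793, adjusted p = 0.00464, or -2.37 without control replicate 1). PLEOSDRAFT_161982 fell from 26.8 ± 10.01 to 5.11 ± 0.664 FPKM (log2 fold change -2.19 ± 0.46, adjusted p = 0.00419). PLEOSDRAFT_1108381 carries ABC transporter and P450 annotations at once and fell from 2.81 ± 1.42 to 0.212 ± 0.121 FPKM (log2 fold change -3.45 ± 0.512, adjusted p = 0.000634). Of 7 genes annotated as a P450 fused to its reductase, the part that supplies the electrons (EC 1.6.2.4 beside a P450 number, KEGG K14338), 1 rose and none fell. Among them PLEOSDRAFT_1052853 rose from 19.9 ± 1.44 to 35.9 ± 2.03 FPKM (log2 fold change 1.06 ± 0.101, adjusted p = 4.79e-05), and the more abundant PLEOSDRAFT_1034442 measured 69.2 ± 4.39 and 63.6 ± 3.77 FPKM and did not pass the test (log2 fold change 0.09 ± 0.153, adjusted p = 0.67, or -0.13 under library-size scaling).

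Glutathione transferases join glutathione to reactive compounds. Of 10 tested genes 5 were higher and 1 lower, with a median of 0.69. PLEOSDRAFT_1113463, the most abundant, measured 263, 373 and 252 FPKM in control and 616, 750.0 and 779 FPKM with both chemicals. It rose without overlap (log2 fold change 1.48 ± 0.263, adjusted p = 0.00173), and the difference from BBP alone, at 983, 568 and 1237 FPKM, did not pass the test (log2 fold change -0.28 ± 0.257, adjusted p = 0.484). PLEOSDRAFT_1049926 (1.72 ± 0.209) and PLEOSDRAFT_1105254 (1.62 ± 0.269) rose as well. PLEOSDRAFT_1055238 fell (log2 fold change -1.137 ± 0.389, adjusted p = 0.0398), a call lost without any 1 library other than control replicate 3 (adjusted p 0.0616 to 0.15). Of 3 genes for glutamate-cysteine ligase, PLEOSDRAFT_1094410 alone changed. This gene, whose enzyme makes the precursor of glutathione, fell from 34.8 ± 11.1 to 10.1 ± 1.76 FPKM (log2 fold change -1.58 ± 0.215, adjusted p = 0.000388). In the glutathione pathway as a whole 13 of 34 were higher and 4 lower, with a median of 0.33, or 8 and 4 with a median of 0.11 under library-size scaling.

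Sterol genes changed in both directions. Ergosterol is the main fungal sterol and is made from squalene through lanosterol, whose methyl group is removed by the P450 sterol 14-alpha-demethylase (CYP51). Of 3 tested genes with this annotation 1 fell, 1 rose and 1 was not called. PLEOSDRAFT_1035254, the most abundant, measured 162, 171 and 194 FPKM in control, 327, 379 and 209 FPKM with BBP alone and 66.4, 82.9 and 88.1 FPKM with BBP and PB. It was lowest with both chemicals and highest with BBP alone, and it fell against control (log2 fold change -0.94 ± 0.198, adjusted p = 0.00432) and against BBP alone (log2 fold change -1.84 ± 0.203, adjusted p = 0.00032). PLEOSDRAFT_1061968 measured 21.8, 23.8 and 29.3 FPKM in control and 57.8, 57.6 and 57.7 FPKM with both chemicals. The treated values were nearly identical and above every control (log2 fold change 1.42 ± 0.122, adjusted p = 2.46e-05) and every library with BBP alone (log2 fold change 1.1096 ± 0.121, adjusted p = 0.00031). PLEOSDRAFT_1047295, at 131 ± 42.7 and 89.5 ± 6.02 FPKM, did not pass the test (log2 fold change -0.33 ± 0.187, adjusted p = 0.19), but was called lower under library-size scaling (-0.56, adjusted p = 0.0471).

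Before CYP51 in the route, of 3 genes with the number of squalene synthase 1 rose and 1 fell, and of 3 for lanosterol synthase 2 rose. The squalene synthase gene PLEOSDRAFT_1040405 rose from 62.1 ± 4.88 to 99.8 ± 8.30 FPKM (log2 fold change 0.89 ± 0.12, adjusted p = 0.00036) and the lanosterol synthase gene PLEOSDRAFT_48716 from 8.11 ± 2.09 to 16.7 ± 0.536 FPKM (log2 fold change 1.27 ± 0.148, adjusted p = 0.000156). Of 5 tested genes with the enzyme number of squalene epoxidase 3 fell and none rose. PLEOSDRAFT_1046279 measured 24.1, 25.8 and 6.24 FPKM in control and 2.69, 1.39 and 2.01 FPKM with both chemicals (log2 fold change -3.01 ± 0.489, adjusted p = 0.00108), and PLEOSDRAFT_163421 measured 64.7, 49.1 and 27.2 FPKM and 15.04, 12.6 and 12.9 FPKM (log2 fold change -1.62 ± 0.308, adjusted p = 0.00259). Neither had a treated library as high as any control. After CYP51, 1 of 4 C-4 methyl oxidase genes, PLEOSDRAFT_1092004, rose (log2 fold change 1.155 ± 0.207, adjusted p = 0.00187) and the other 3 were not called. The C-5 desaturase gene PLEOSDRAFT_1113951 rose as well (log2 fold change 0.94 ± 0.159, adjusted p = 0.00138). Both C-4 decarboxylase genes fell, among them PLEOSDRAFT_1059203 (log2 fold change -1.49 ± 0.257, adjusted p = 0.00154). In all, 9 of 37 genes of the steroid pathway were higher and 8 lower (24.3% and 21.6%, against 19.9% and 21.2% of all genes). The median was -0.08, and 5 were higher and 13 lower under library-size scaling.

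Many genes of the peroxisome and of fatty acid breakdown rose. Peroxisomes hold fatty acid oxidation, alcohol oxidase and catalase in many fungi. In the KEGG peroxisome pathway 40 of 70 genes were higher and 8 lower (57.1% and 11.4%, against 19.9% and 21.2% of all genes), with a median log2 change of 0.63, and 35 and 9 under library-size scaling. The lower count was 5 without control replicate 2, 5 without replicate 1 with BBP and PB, and 4 without replicate 3 with BBP and PB. With BBP alone against control, 37 of the 70 peroxisome genes were higher and 1 lower, with a median of 0.50 (18.4% of all genes were called). For BBP with PB against BBP alone, 9 were higher and 6 lower, with a median of 0.03 (9.99% and 10.5% of all genes). In fatty acid degradation 25 of 49 were higher and 3 lower, with a median of 0.62.

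Among peroxisome genes PLEOSDRAFT_1102187, annotated as a membrane protein, measured 5.39, 11.5 and 18.6 FPKM in control and 154, 207 and 187 FPKM with both chemicals. Every treated library was above every control (log2 fold change 4.19 ± 0.57, adjusted p = 0.000383) and above those with BBP alone, at 20.2, 69.3 and 19.3 FPKM. Of 4 carnitine acetyltransferase genes (EC 2.3.1.7), whose enzyme helps move acetyl groups between peroxisome and mitochondrion, 3 rose and 1 fell. The strongest, PLEOSDRAFT_163963, rose from 68.4 ± 1.97 to 233 ± 21.2 FPKM (log2 fold change 1.97 ± 0.152, adjusted p = 1.31e-05). Of 3 acyl-CoA dehydrogenase genes (EC 1.3.8.7) 1 was called. This gene, PLEOSDRAFT_1063873, rose from 145 ± 29.8 to 403 ± 31.0 FPKM (log2 fold change 1.69 ± 0.157, adjusted p = 4.18e-05). Of 7 genes for long-chain acyl-CoA ligases (EC 6.2.1.3), which activate fatty acids, 3 rose and 3 fell. Among them PLEOSDRAFT_37195 rose from 52.1 ± 7.98 to 221 ± 6.76 FPKM (log2 fold change 2.30 ± 0.134, adjusted p = 2.43e-06), and PLEOSDRAFT_1091202 (-1.398 ± 0.22) and PLEOSDRAFT_62084 (-1.39 ± 0.352) fell. An epoxide hydrolase gene, PLEOSDRAFT_1112414 (EC 3.3.2.10), rose from 12.5 ± 2.96 to 38.7 ± 1.29 FPKM (log2 fold change 1.85 ± 0.193, adjusted p = 8.5e-05).

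Single genes of lipid synthesis rose strongly. Of 4 stearoyl-CoA desaturase genes, whose enzyme makes oleic from stearic acid, 3 rose and none fell. The strongest, PLEOSDRAFT_1092456, measured 4.71, 6.68 and 6.06 FPKM in control and 37.2, 40.9 and 33.8 FPKM with both chemicals. The groups were far apart (log2 fold change 2.90 ± 0.137, adjusted p = 8.95e-07), and the step from BBP alone also passed (log2 fold change 2.11 ± 0.133, adjusted p = 2.48e-05). Phosphatidylinositol synthase, PLEOSDRAFT_1060887, rose from 103 ± 16.002 to 387 ± 31.7 FPKM (log2 fold change 2.12 ± 0.119, adjusted p = 1.99e-06). Fatty acid biosynthesis had 7 of 29 genes higher and 6 lower with a median of -0.11, or 6 and 6 under library-size scaling. Glycerolipid metabolism had 19 of 57 higher and 0 lower with a median of 0.23, or 11 and 4 under library-size scaling.

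Many genes of central carbon metabolism rose. In glycolysis and gluconeogenesis 33 of 57 were higher and 3 lower, with a median of 0.50, and in the citrate cycle 15 of 37 were higher and 2 lower, with a median of 0.30 (26 and 8, and 11 and 7, under library-size scaling). Phosphoenolpyruvate carboxykinase, which starts gluconeogenesis, is encoded by the abundant PLEOSDRAFT_1089535, at 4319.6, 4185 and 3559 FPKM in control and 5511, 5906 and 6129 FPKM with both chemicals. It rose without overlap (log2 fold change 0.74 ± 0.148, adjusted p = 0.0033) and was at 8069.7, 8720.1 and 7923 FPKM with BBP alone, above the group with PB in every library. The difference between BBP with PB and BBP alone did not pass the test (log2 fold change -0.39 ± 0.147, adjusted p = 0.0903). All 3 genes with this annotation rose, among them the less expressed PLEOSDRAFT_1089539 (log2 fold change 1.62 ± 0.145, adjusted p = 3.34e-05). The citrate synthase gene PLEOSDRAFT_1067387, 1 of 2 that rose among 3, went from 361 ± 80.7 to 802 ± 55.2 FPKM (log2 fold change 1.34 ± 0.196, adjusted p = 0.000581), and acetyl-CoA synthetase PLEOSDRAFT_1091136, which activates acetate, from 345 ± 43.1 to 772 ± 11.9 FPKM (log2 fold change 1.37 ± 0.202, adjusted p = 0.000619).

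Many genes of amino acid breakdown rose. The counts of higher and lower genes were 28 and 3 of 51 for valine, leucine and isoleucine degradation (median 0.63), 20 and 3 of 34 for tyrosine metabolism (0.71), 24 and 4 of 56 for tryptophan metabolism (0.43), 18 and 2 of 37 for lysine degradation (0.46) and 17 and 2 of 36 for beta-alanine metabolism (0.43). Gene lists overlap, as 1021 of the 3007 genes in any list are in more than 1, so these counts are not independent. The medians under library-size scaling were 0.41, 0.49, 0.20, 0.24 and 0.21 in the same order.

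In arginine and proline metabolism 16 of 44 genes were higher and 6 lower, with a median of 0.31, or 11 and 6 with a median of 0.09 under library-size scaling. The agmatinase gene PLEOSDRAFT_1065795 (EC 3.5.3.11), whose enzyme splits agmatine into putrescine and urea, was the only 1 of 3 tested genes with this number to change. It measured 9.49, 11.9 and 9.79 FPKM in control, 12.7, 14.9 and 13.1 FPKM with BBP alone and 189, 202 and 186 FPKM with BBP and PB. The libraries with BBP alone were slightly above every control (log2 fold change 0.49 ± 0.112, adjusted p = 0.0154, in a comparison where 18.4% of genes were called), and all libraries with PB were far above both (log2 fold change 4.43 ± 0.127, adjusted p = 1.06e-07 against control, log2 fold change 3.93 ± 0.124, adjusted p = 2.66e-07 against BBP alone). Of the arginase genes, which split arginine into ornithine and urea, PLEOSDRAFT_1087775 rose from 114 ± 4.79 to 484 ± 56.0 FPKM (log2 fold change 2.29 ± 0.226, adjusted p = 6.12e-05) and PLEOSDRAFT_1067181 fell from 34.9 ± 9.62 to 4.52 ± 1.15 FPKM (log2 fold change -2.76 ± 0.46, adjusted p = 0.00127).

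Phenylalanine ammonia-lyase, which releases ammonia from phenylalanine to give cinnamate, is annotated for a pair of genes. PLEOSDRAFT_173727 measured 27.8, 26.1 and 24.9 FPKM in control and 419.7, 299 and 417 FPKM with both chemicals. It rose without overlap (log2 fold change 4.05 ± 0.409, adjusted p = 7.21e-05). PLEOSDRAFT_1112899 measured 1284, 583 and 74.4 FPKM in control and 187, 98.1 and 84.0 FPKM with both chemicals, groups that overlap. Its fall was just past the threshold (log2 fold change -2.25 ± 0.807, adjusted p = 0.0479), became -1.142 without control replicate 1 (adjusted p = 0.227), and the call was also lost without control replicate 2 and without each library of BBP with PB (adjusted p 0.0628 to 0.143). Of 3 genes for the entry enzyme of aromatic amino acid synthesis (EC 2.5.1.54), 1 changed. This gene, PLEOSDRAFT_1094120, measured 633, 154 and 187 FPKM in control and 30.9, 30.9 and 34.4 FPKM with both chemicals, and fell without overlap (log2 fold change -3.19 ± 0.593, adjusted p = 0.00225, or -2.13 without control replicate 1).

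**Figure D3:**
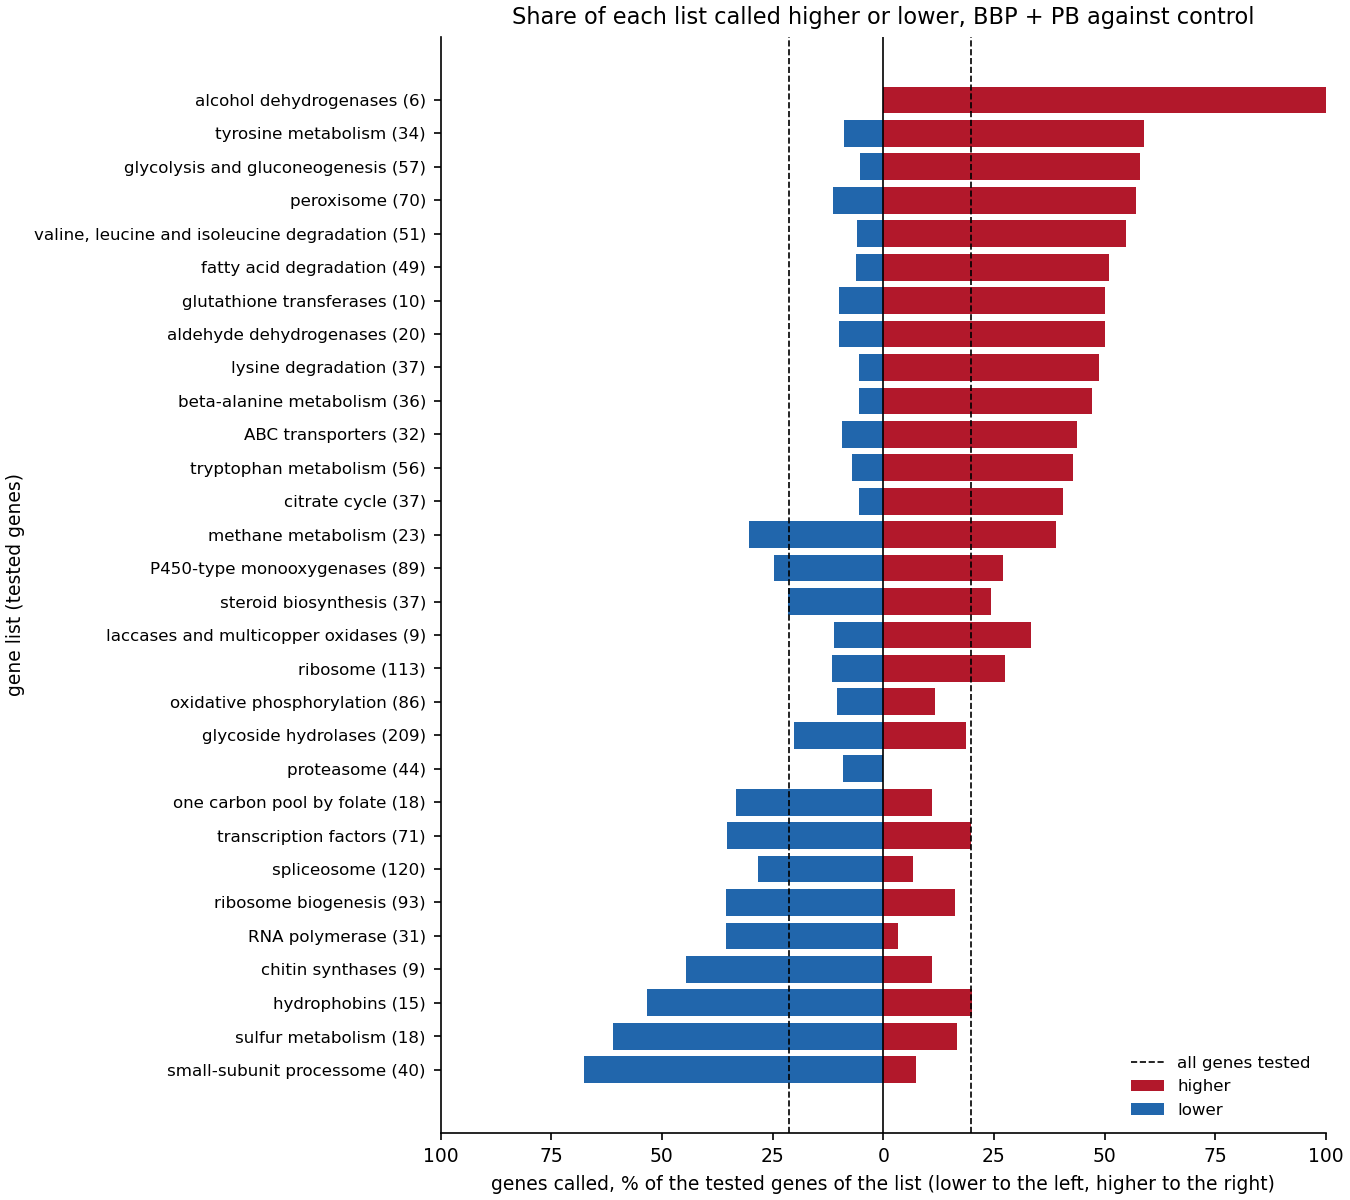
Share of the tested genes of 30 gene lists called higher (red, to the right) or lower (blue, to the left) with BBP and PB than in control, in percent, with the number of tested genes in brackets and dashed lines at the shares of all tested genes (19.9% higher, 21.2% lower). Alcohol dehydrogenases (6 of 6 higher) are at the top and the small-subunit processome (27 of 40 lower) is at the bottom.

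**Figure D4:**
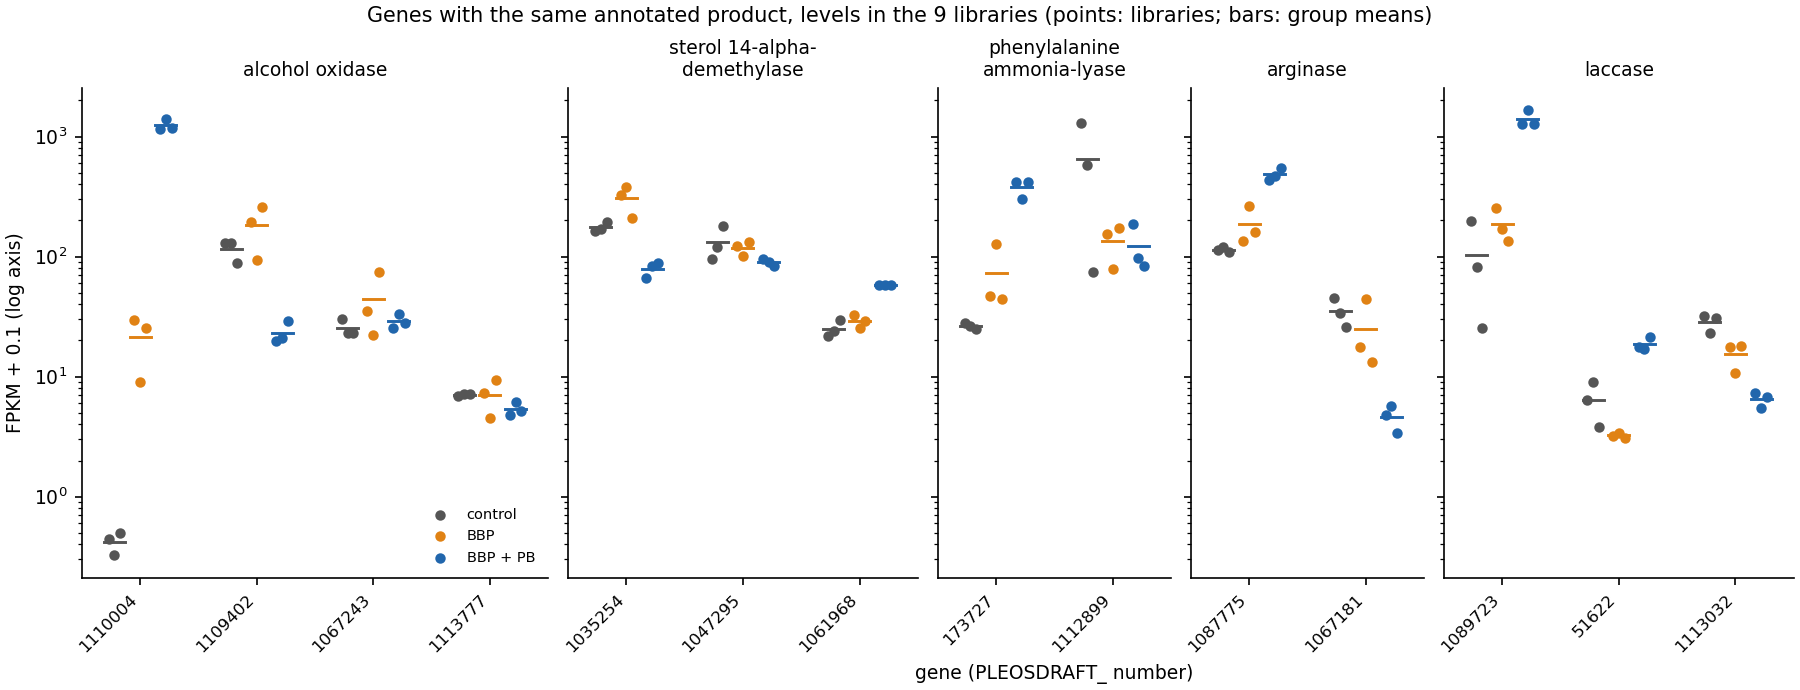
FPKM + 0.1 on a log axis for genes that share an annotated product, with 1 point per library and bars for group means, in control (grey), BBP alone (orange) and BBP with PB (blue). In each panel 1 or more genes have a higher mean with BBP and PB than in control while another has a lower mean. In arginase, PLEOSDRAFT_1087775 rose and PLEOSDRAFT_1067181 fell. For the phenylalanine ammonia-lyase gene with the lower mean, PLEOSDRAFT_1112899, the libraries of control and of BBP with PB overlap.

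Genes of sulfur assimilation and of folate metabolism were among those that fell. Sulfate is activated by ATP sulfurylase, reduced in steps to sulfide and built into cysteine and methionine, from which S-adenosylmethionine, the main methyl donor, is made. Of 18 sulfur metabolism genes 11 were lower and 3 higher, with a median of -0.42, and 12 and 1 under library-size scaling. The lower count was 6 without replicate 1 and 6 without replicate 3 with BBP and PB. ATP sulfurylase PLEOSDRAFT_1093336 measured 60.3, 103 and 151 FPKM in control and 25.8, 34.7 and 32.7 FPKM with both chemicals. The treated libraries were below every control (log2 fold change -1.52 ± 0.296, adjusted p = 0.0029). The sulfite reductase gene PLEOSDRAFT_1112155, 1 of 2 tested, measured 21.7, 44.1 and 48.1 FPKM and 7.58, 9.39 and 8.19 FPKM and fell further (log2 fold change -1.94 ± 0.255, adjusted p = 0.000316). Between them in the route, the phosphoadenylyl-sulfate reductase gene PLEOSDRAFT_1093081 went from 86.3 ± 11.8 to 48.8 ± 5.57 FPKM (log2 fold change -0.61 ± 0.14, adjusted p = 0.00694). After them, the cysteine synthase gene PLEOSDRAFT_1093381 (EC 2.5.1.47) went from 160.5 ± 30.6 to 81.5 ± 4.19 FPKM (log2 fold change -0.76 ± 0.137, adjusted p = 0.00192).

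The more abundant of 2 genes for S-adenosylmethionine synthetase, PLEOSDRAFT_1052256, measured 1005, 1192 and 1114 FPKM in control, 731, 772 and 652 FPKM with BBP alone and 402, 381 and 470.1 FPKM with both chemicals. The groups were ordered downward with no overlap (log2 fold change -1.19 ± 0.119, adjusted p = 6.9e-05 against control, log2 fold change -0.68 ± 0.118, adjusted p = 0.00383 against BBP alone). The other gene with this enzyme number was higher. In the folate pathway 6 of 18 genes were lower and 2 higher, or 7 and 1 under library-size scaling. The lower genes included 1 of 2 for methylenetetrahydrofolate reductase, PLEOSDRAFT_1077525 (log2 fold change -1.13 ± 0.196, adjusted p = 0.00154), and 5-formyltetrahydrofolate cyclo-ligase PLEOSDRAFT_1062158 (log2 fold change -1.26 ± 0.121, adjusted p = 5.26e-05). Glycine hydroxymethyltransferase PLEOSDRAFT_1059932, which loads folate with a carbon unit from serine, fell from 448 ± 74.9 to 181 ± 18.3 FPKM (log2 fold change -1.09 ± 0.121, adjusted p = 0.000122), and phosphoglycerate dehydrogenase PLEOSDRAFT_166222, the entry to serine synthesis, from 252 ± 60.0 to 82.1 ± 6.62 FPKM (log2 fold change -1.396 ± 0.217, adjusted p = 0.000822).

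Most genes of the small-subunit processome fell, and ribosome genes changed in both directions. The small-subunit processome is the nucleolar particle that processes the precursor of the small ribosomal RNA. Of its 40 genes 27 were lower and 3 higher, with a median log2 change of -0.71 (32 and 1 under library-size scaling), and the lower count was 21 to 30 with each library left out in turn. With BBP alone against control 21 were lower and 1 higher, with a median of -0.62. For BBP with PB against BBP alone 2 were lower and 2 higher, with a median of -0.09. PLEOSDRAFT_1112170, a Brix-domain protein of this particle, measured 9.20, 19.1 and 20.7 FPKM in control and 4.90, 3.76 and 3.75 FPKM with both chemicals. All treated libraries were below all controls (log2 fold change -1.74 ± 0.258, adjusted p = 0.000643), and the libraries with BBP alone, at 5.73, 4.91 and 5.19 FPKM, were not separated from them by the test (log2 fold change -0.24 ± 0.256, adjusted p = 0.547). PLEOSDRAFT_1076023 (log2 fold change -1.32 ± 0.201, adjusted p = 0.00075) and PLEOSDRAFT_46994 (log2 fold change -1.35 ± 0.231, adjusted p = 0.00143) fell by similar amounts. The highest riser of the list, PLEOSDRAFT_1066597, annotated for rRNA methylation, went from 42.3 ± 5.10 to 86.5 ± 9.69 FPKM (log2 fold change 1.23 ± 0.156, adjusted p = 0.000247).

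In the wider ribosome biogenesis pathway 33 of 93 genes were lower and 15 higher, with a median of -0.25, or 45 and 11 under library-size scaling. Its strongest risers, PLEOSDRAFT_1076619 (log2 fold change 5.49 ± 0.244, adjusted p = 7.64e-07) and PLEOSDRAFT_1101897 (log2 fold change 4.49 ± 0.255, adjusted p = 2.13e-06), carry ontology terms for a monooxygenase and for a catalytic activity, which do not match their place in this pathway. Of 113 ribosome genes 31 were higher and 13 lower with a median of 0.25. The higher count was 15 without control replicate 2, 13 without replicate 1 and 12 without replicate 3 with BBP and PB, and the lower count was 8 without replicate 2 and 8 without replicate 3 with BBP and PB. Under library-size scaling 7 were higher and 28 lower. With TMM scaling, 2 ribosome genes were higher and 10 lower with BBP alone than in control, with a median of -0.18. For BBP with PB against BBP alone, 50 were higher and 0 lower, with a median of 0.43 (9.99% and 10.5% of all genes). RNA polymerase genes were lower in 11 of 31 cases and higher in 1 (7 lower without replicate 3 with BBP and PB). In the spliceosome 34 of 120 were lower and 8 higher, with 22 lower without replicate 2 and 19 lower without replicate 3 with BBP and PB, and 5 higher without replicate 1 or replicate 3 with BBP and PB. Under library-size scaling 54 spliceosome genes were lower and 2 higher, and 16 RNA polymerase genes were lower and 0 higher. Of 44 proteasome genes 0 were higher and 4 lower, or 5 higher without control replicate 3 and 8 lower under library-size scaling.

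Hydrophobin genes changed in both directions, with the larger changes downward. Of 15 tested genes 8 were lower and 3 higher, with a median log2 change of -1.01, and 9 and 3 under library-size scaling. The vegetative hydrophobin Vmh2, PLEOSDRAFT_1091049, measured 569.9, 611 and 843 FPKM in control, 102, 10.5 and 68.3 FPKM with BBP alone and 0.767, 0 and 0.512 FPKM with BBP and PB. It was abundant in every control and nearly absent from every treated library (log2 fold change -10.34 ± 1.03, adjusted p = 6.47e-05, or -11.14 without replicate 1 with BBP and PB), and the libraries with BBP alone lay between without overlap (log2 fold change -6.96 ± 0.946, adjusted p = 0.00103). The libraries with both chemicals held 19, 0 and 11 counts of Vmh2, so the sizes of these fold changes are imprecise. PLEOSDRAFT_163649 had 718, 636 and 2090 counts in control and 0 counts in each library with both chemicals. Against a floor of 3 counts per library it was at least 276.6-fold lower, or at least 177.9-fold lower without control replicate 3.

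PLEOSDRAFT_1060612 measured 408, 444 and 774 FPKM in control and 14.4, 10.2 and 19.2 FPKM with both chemicals. Every treated library was far below every control, without a loss to 0 (log2 fold change -4.99 ± 0.377, adjusted p = 1.17e-05). Hydrophobin 3, PLEOSDRAFT_1114379, fell from 68.1 ± 38.2 to 2.06 ± 0.596 FPKM (log2 fold change -4.78 ± 0.408, adjusted p = 2.46e-05) and hydrophobin 15, PLEOSDRAFT_35044, from 19.3 ± 11.1 to 0.629 ± 0.114 FPKM (log2 fold change -4.66 ± 0.949, adjusted p = 0.00367). The other lower members were PLEOSDRAFT_166938 (-1.92 ± 0.491), PLEOSDRAFT_154910 (-1.01 ± 0.23) and PLEOSDRAFT_172202 (-0.85 ± 0.203).

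Of the hydrophobins 3 rose, all from low levels. PLEOSDRAFT_160070 measured 4.74, 3.16 and 2.67 FPKM in control and 17.8, 17.97 and 16.3 FPKM with both chemicals. Its groups did not overlap (log2 fold change 2.48 ± 0.294, adjusted p = 0.000177), and neither did those of PLEOSDRAFT_156845, from 3.63 ± 1.178 to 10.3 ± 1.05 FPKM (log2 fold change 1.72 ± 0.296, adjusted p = 0.00148), or of PLEOSDRAFT_19935, from 8.75 ± 2.56 to 14.4 ± 2.73 FPKM (log2 fold change 0.93 ± 0.237, adjusted p = 0.0111). Hydrophobin 1, PLEOSDRAFT_1061626, did not pass the test (log2 fold change 0.72 ± 0.319, adjusted p = 0.0987), but was higher without control replicate 1 (1.02, adjusted p = 0.0356).

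**Figure D5:**
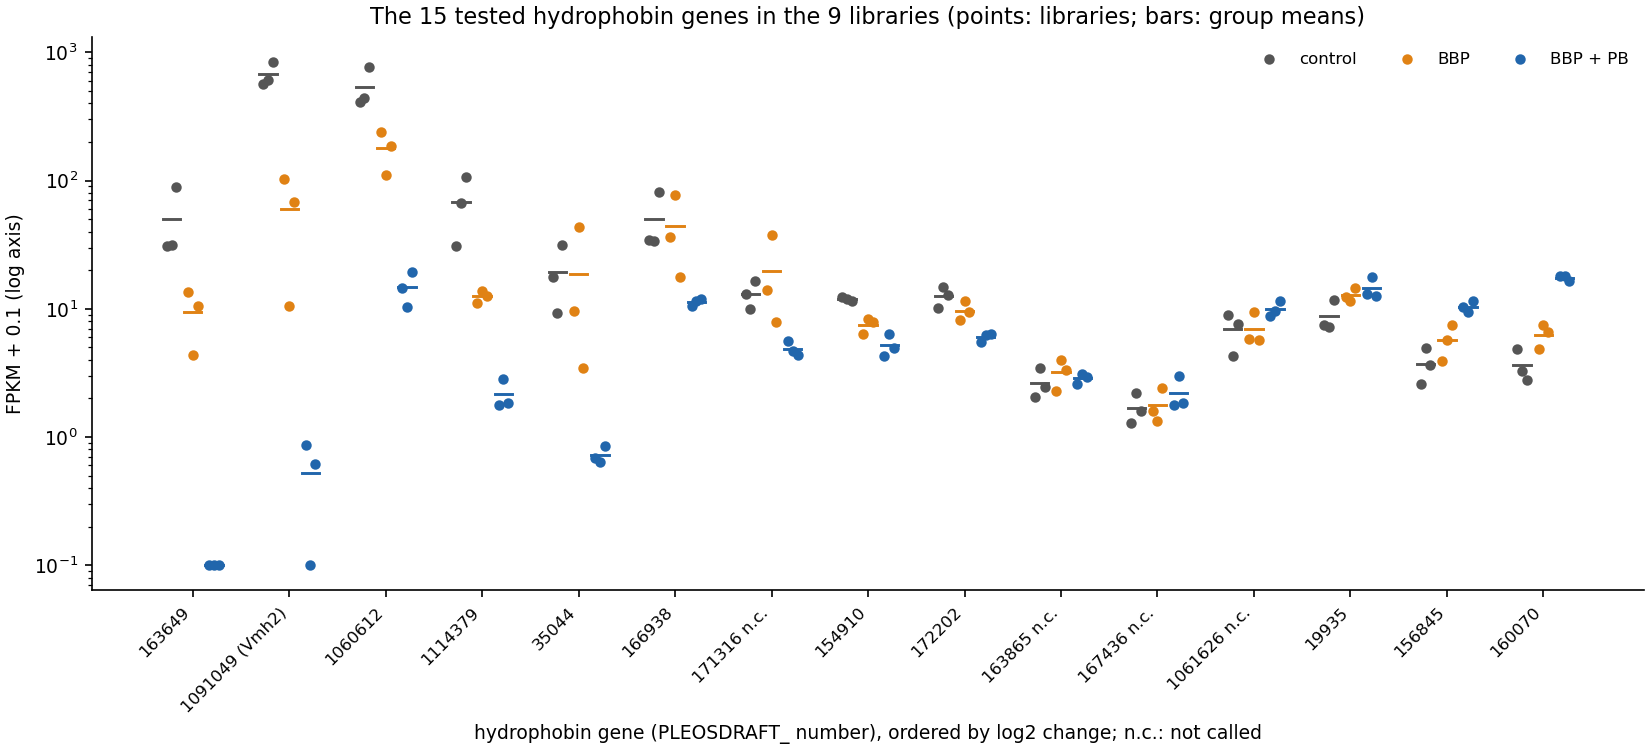
FPKM + 0.1 on a log axis for the 15 tested hydrophobin genes, ordered by log2 change, with 1 point per library and bars for group means in control (grey), BBP alone (orange) and BBP with PB (blue), and n.c. marking genes not called. On the left the treated libraries lie far below the controls (Vmh2 at 570 to 843 FPKM in control and 0 to 0.767 FPKM with BBP and PB), and on the right 3 genes lie above them.

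Secreted enzymes of wood decay changed in both directions. Of 9 laccases and their small subunits, copper enzymes that oxidise phenols, 3 were higher and 1 lower, or 3 and 2 under library-size scaling. The shares of the main count, 33.3% and 11.1%, stood against 19.9% and 21.2% of all genes. The laccase gene PLEOSDRAFT_1089723 measured 199, 82.2 and 25.2 FPKM in control, 255, 170.3 and 135 FPKM with BBP alone and 1268, 1647 and 1277 FPKM with BBP and PB. The controls varied widely, but every library with PB lay above all the others (log2 fold change 3.92 ± 0.663, adjusted p = 0.00137 against control, or 4.97 without control replicate 1, and log2 fold change 3.01 ± 0.636, adjusted p = 0.00955 against BBP alone). Of 2 genes described as small subunit of laccase POXA3a, PLEOSDRAFT_1067572 rose from 132 ± 78.1 to 606 ± 76.2 FPKM (log2 fold change 2.37 ± 0.492, adjusted p = 0.004). The laccase gene PLEOSDRAFT_51622 rose from 6.28 ± 2.57 to 18.5 ± 2.28 FPKM (log2 fold change 1.76 ± 0.265, adjusted p = 0.000692). The laccase gene PLEOSDRAFT_1113032 fell from 28.7 ± 5.002 to 6.43 ± 0.963 FPKM (log2 fold change -1.95 ± 0.242, adjusted p = 0.000224).

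Of 12 peroxidase genes of this class 3 were lower and 1 higher, or 3 and 0 under library-size scaling. The share lower, 25%, was close to the 21.2% of all genes, and the share higher was 8.33% against 19.9%. A putative versatile peroxidase, PLEOSDRAFT_1089895, an enzyme type that attacks lignin and manganese, measured 26.9, 24.7 and 32.8 FPKM in control and 0.464, 1.107 and 0.662 FPKM with both chemicals. Every treated library was far below every control (log2 fold change -5.03 ± 0.831, adjusted p = 0.00119). The dye-decolorizing peroxidase gene PLEOSDRAFT_62271 fell from 4.55 ± 1.83 to 0.885 ± 0.24 FPKM (log2 fold change -2.17 ± 0.355, adjusted p = 0.00113) and the heme-thiolate peroxidase gene PLEOSDRAFT_1110336 from 64.0 ± 19.4 to 38.5 ± 1.08 FPKM (log2 fold change -0.51 ± 0.169, adjusted p = 0.034). The last call was lost without control replicate 3 and without each library of BBP with PB (adjusted p 0.0669 to 0.0905). A versatile peroxidase gene of low level, PLEOSDRAFT_156336, rose (log2 fold change 0.71 ± 0.188, adjusted p = 0.0135), a call lost under library-size scaling (adjusted p = 0.0719).

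Of 209 glycoside hydrolase genes, which cut polysaccharides, 39 were higher and 42 lower with a median of -0.08. These shares, 18.7% and 20.1%, were close to the 19.9% and 21.2% of all genes. Without replicate 2 with BBP and PB 24 were higher. Under library-size scaling 21 were higher and 61 lower with a median of -0.30. The family 16 gene PLEOSDRAFT_1072937, from a family that cuts beta-glucans of walls among other substrates, measured 371, 231 and 261 FPKM in control and 2.76, 2.91 and 3.40 FPKM with both chemicals. It fell in every treated library (log2 fold change -6.39 ± 0.742, adjusted p = 0.000156), with BBP alone between at 72.2, 9.96 and 89.2 FPKM. The family 79 gene PLEOSDRAFT_1059085 fell from 68.3 ± 21.2 to 3.83 ± 0.455 FPKM (log2 fold change -3.93 ± 0.23, adjusted p = 2.43e-06) and the family 3 gene PLEOSDRAFT_1034680 from 24.2 ± 9.33 to 1.42 ± 0.141 FPKM (log2 fold change -3.87 ± 0.307, adjusted p = 1.6e-05). These families changed in both directions, with 2 higher and 8 lower of 25 genes in family 16, 1 and 3 of 7 in family 79, and 5 and 3 of 13 in family 3. A family 23 gene, PLEOSDRAFT_29354, rose from 54.7 ± 10.2 to 338 ± 11.9 FPKM (log2 fold change 2.82 ± 0.236, adjusted p = 2.25e-05).

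Genes of chitin synthesis and modification changed in both directions. Chitin synthases polymerise the chitin of the wall, and 4 of 9 were lower and 1 higher, or 7 and 1 under library-size scaling. PLEOSDRAFT_1054937 fell from 354 ± 86.2 to 169 ± 15.3 FPKM (log2 fold change -0.87 ± 0.205, adjusted p = 0.00777) and PLEOSDRAFT_1087442 from 46.6 ± 7.07 to 22.3 ± 2.28 FPKM (log2 fold change -0.85 ± 0.13, adjusted p = 0.000761), while the weakly expressed PLEOSDRAFT_28823 rose from 1.86 ± 0.261 to 3.89 ± 0.212 FPKM (log2 fold change 1.276 ± 0.204, adjusted p = 0.000992). Of 10 chitin deacetylase genes (EC 3.5.1.41), which turn chitin into chitosan, 3 rose and 3 fell, as PLEOSDRAFT_175606 fell from 156 ± 28.6 to 24.96 ± 1.53 FPKM (log2 fold change -2.43 ± 0.139, adjusted p = 2.17e-06) and PLEOSDRAFT_1113735 rose from 41.4 ± 3.89 to 181 ± 23.3 FPKM (log2 fold change 2.34 ± 0.2, adjusted p = 2.46e-05).

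Large changes were also seen in genes with no informative description. PLEOSDRAFT_1090489 measured 3865, 3522 and 2869.5 FPKM in control and 113, 170.5 and 141 FPKM with both chemicals. It was abundant in the controls, fell in every treated library (log2 fold change -4.40 ± 0.449, adjusted p = 7.58e-05) and was at 2160.4, 836 and 3153 FPKM with BBP alone. PLEOSDRAFT_1037579 fell from 901 ± 191 to 3.56 ± 1.159 FPKM (log2 fold change -7.77 ± 0.817, adjusted p = 8.82e-05). The O-methyltransferase gene PLEOSDRAFT_1114007 fell from 105 ± 74.9 to 1.302 ± 0.446 FPKM (log2 fold change -6.09 ± 0.702, adjusted p = 0.000147, or -5.40 without control replicate 3). Besides the hydrophobin PLEOSDRAFT_163649, 4 more tested genes had 0 counts in all 3 libraries with both chemicals, and no tested gene had 0 counts in all 3 controls. Of these, PLEOSDRAFT_1096385 had 1074, 342 and 514 counts in control and was at least 163-fold lower against the same floor (103.1-fold without control replicate 1), and PLEOSDRAFT_171103, with a term for a calcium-dependent cysteine-type endopeptidase, had 227, 289 and 170 counts and was at least 58.04-fold lower.

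Upward, PLEOSDRAFT_160242 measured 0.88, 1.36 and 1.45 FPKM in control and 88.7, 87.2 and 74.2 FPKM with both chemicals. It has no annotation and rose without overlap (log2 fold change 6.29 ± 0.596, adjusted p = 4.79e-05). PLEOSDRAFT_50014, with an NADPH dehydrogenase term, measured 0.762, 0.912 and 1.27 FPKM in control, 153, 124 and 105 FPKM with BBP alone and 49.7, 56.2 and 50.9 FPKM with BBP and PB. It rose against control (log2 fold change 5.93 ± 0.203, adjusted p = 2e-07), and its libraries with BBP alone were higher than those with PB (log2 fold change -1.174 ± 0.16, adjusted p = 0.00103). PLEOSDRAFT_1104183 rose from 1.07 ± 0.697 to 49.9 ± 12.6 FPKM (log2 fold change 5.74 ± 0.377, adjusted p = 4.66e-06, or 6.36 without control replicate 2). PLEOSDRAFT_1047685, 1 of 4 genes annotated as aspartate-tRNA ligase (EC 6.1.1.12), measured 158, 172 and 160.0 FPKM in control and 1530.0, 1897 and 1752 FPKM with both chemicals and rose without overlap (log2 fold change 3.61 ± 0.199, adjusted p = 1.85e-06).

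Of 71 transcription factor genes 25 were lower and 14 higher, or 16 lower without control replicate 2. PLEOSDRAFT_1106249 measured 189, 114 and 99.0 FPKM in control and 6.33, 5.91 and 7.14 FPKM with both chemicals. Every treated library was far below every control (log2 fold change -4.20 ± 0.467, adjusted p = 0.000122), with BBP alone between at 27.0, 16.5 and 54.9 FPKM. PLEOSDRAFT_167727, also annotated in the KEGG pathway of yeast MAPK signalling, fell from 53.3 ± 2.78 to 7.32 ± 1.298 FPKM (log2 fold change -2.66 ± 0.172, adjusted p = 4.42e-06).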

How the data were processed

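RNA-seq of Pleurotus ostreatus GEMB-PO1 mycelium was used as deposited, as 1 table of 10682 genes by 9 libraries, 10623 of them protein-coding and 59 tRNA genes. The authors' deposited counts are whole reads per gene, and their deposited FPKM values are scaled by gene length and library total. The tools named per the submitters' processing notes are fastp, HISAT2 and StringTie, with their versions, the genome build, counting tool and strand setting not given in the sources used here. Reads of near-identical or antisense genes could therefore be split between rows. No gene ID matched the reference gene table, and no sequence is printed.

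The comparison used a negative binomial model over the 3 groups (edgeR 4.0.16, R 4.3.3, TMM scaling, quasi-likelihood test, Benjamini-Hochberg adjustment over all 9397 genes, threshold 0.05). Protein-coding genes entered the test if their mean over the 9 libraries reached 1 FPKM. Standard errors were taken from the fold change and its F statistic. In data simulated for BBP with PB against control on 9397 genes, 4, 35, 47 and 50 of 50 changed genes were recovered at log2 changes of 0.5, 1, 2 and 3, with 7 false calls. Far fewer genes were changed in the simulation than the 41.1% called in the real data, which makes its adjusted threshold stricter. FPKM give levels only. Counting error is small for most genes at these depths, and replicate spread (biological coefficient of variation 0.201) sets their precision. It is not small for genes with few counts in a group. Examples are PLEOSDRAFT_1110004, with 37, 21 and 43 counts in control, and PLEOSDRAFT_1091049, with 19, 0 and 11 counts with BBP and PB.

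The genes and gene lists were chosen with earlier results of these data known. Named genes were taken by size of change among described genes, genes with an enzyme number and all genes, by abundance, as the strongest called genes of each list, and from fixed enzyme numbers. Of the 123 genes named, 99 came from this rule and 24 were chosen after their values were seen. Lists follow descriptions, gene ontology, KEGG pathways and enzyme numbers in the deposited table. Fold changes of genes with 0 counts in a whole group are given as bounds against 3 counts per library. Alternatives were RLE and library-size scaling, DESeq2 1.42.0, limma 3.58.1 on log2(FPKM + 1) and log2(FPKM + 0.1), other filters, a replicate block and leaving out each library. Python 3.11.15 (pandas 2.3.3, matplotlib 3.10.9) served for summaries and plots.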

Additional observations from a re-analysis of the deposited data

How the results depend on the processing

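The split of calls rested on the scaling. Genes higher and lower numbered 1195 and 3183 with the library totals as scaling, 1248 and 3061 with limma on log2(FPKM + 1) and 1246 and 3063 with limma on log2(FPKM + 0.1). Genes higher by at least 1 log2 unit numbered 482 with limma on log2(FPKM + 1). RLE scaling, DESeq2 (3 adjusted p-values missing), no filter on FPKM, a mean of at least 5 FPKM and a model of the 6 libraries alone gave counts within 1.5 times of 1871 and 1995. Leaving out 1 library at a time gave 1447 to 1946 higher and 1428 to 1977 lower genes, with 713 to 810 higher and 698 to 800 lower by at least 1 log2 unit. Of the 123 genes named, 120 to 123 kept their direction and side of the threshold under each of these settings (119 of 119 tested at 5 FPKM), and none passed the threshold in the opposite direction. Most were named for large changes in these same data, so their stability was largely set by the choice and does not extend to other genes. Same-numbered control and treated libraries correlated at 0.173, -0.049 and 0.206 in their deviations from group means, and differently numbered ones at -0.243 to 0.155. So few values cannot decide whether the numbers pair the samples, which were treated as unpaired. With the number as a replicate block 1772 genes were higher and 1840 lower, with 775 and 758 by at least 1 log2 unit, and 3 named genes lost their call. At this depth and with 3 libraries per group, changes near 0.5 log2 units were mostly missed in simulated data (4 of 50 found). Far fewer genes were changed there than were called here, so this recovery does not measure the sensitivity of the comparison. A gene without a call may still have changed.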

Other observations

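Further gene groups of the same comparison can be set against the shares of all genes, 19.9% higher and 21.2% lower. Nitrogen metabolism had 11 of 25 genes higher and 8 lower, or 5 lower without control replicate 2 and 9 and 9 under library-size scaling. It included the nitrite reductase gene PLEOSDRAFT_1037806 (EC 1.7.1.4), which rose from 33.9 ± 8.67 to 311 ± 92.2 FPKM (log2 fold change 3.40 ± 0.278, adjusted p = 1.93e-05), the glutamate dehydrogenase gene PLEOSDRAFT_40761 (2.02 ± 0.212) and a nitrilase gene, PLEOSDRAFT_1057607, which fell from 149 ± 70.5 to 27.4 ± 11.3 FPKM (log2 fold change -2.26 ± 0.451, adjusted p = 0.00326). Of 13 genes of ubiquinone synthesis 4 were higher and 1 lower, or 4 and 2 under library-size scaling. Of 3 prenyltransferase genes (EC 2.5.1.39), whose enzyme joins the isoprenoid tail to the ring, 1 rose and 1 fell. The riser, PLEOSDRAFT_160996, went from 40.7 ± 5.80 to 287 ± 38.2 FPKM (log2 fold change 3.03 ± 0.164, adjusted p = 1.7e-06). The glutamate decarboxylase gene PLEOSDRAFT_1085408 (EC 4.1.1.15), whose enzyme makes 4-aminobutyrate, rose from 5.54 ± 2.59 to 21.8 ± 3.76 FPKM (log2 fold change 2.19 ± 0.476, adjusted p = 0.00503).

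Counts for genome maintenance and respiration moved when single libraries were left out. Of 49 DNA replication genes 5 were higher and 7 lower, or 1 and 9 under library-size scaling. Without control replicate 3, 18 were higher, and 3 and 2 were higher without control replicate 2 and without replicate 2 with BBP and PB. The lower count was 3 without control replicate 2 and 4 and 3 without replicates 2 and 3 with BBP and PB. Of 32 mismatch repair genes 7 were higher and 4 lower (3 and 4 under library-size scaling), with 17 higher without control replicate 3 and 4 higher without replicate 2 with BBP and PB. In oxidative phosphorylation 10 of 86 genes were higher and 9 lower with a median of 0.04, or 3 and 16 with a median of -0.17 under library-size scaling. The higher count was 6 without control replicate 2 and 5 without each library of BBP with PB, and the lower count was 5 and 3 without control replicates 1 and 2, and 3 and 4 without replicates 2 and 3 with BBP and PB.

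Further single genes changed. Peptidase 1, PLEOSDRAFT_1088548, fell from 192 ± 78.3 to 11.8 ± 1.56 FPKM (log2 fold change -3.83 ± 0.429, adjusted p = 0.000127). A pair of genes annotated as proteasome subunits (EC 3.4.25.1), which also carry terms for sporocarp development and thioredoxin peroxidase activity and are among the 4 proteasome genes called lower, PLEOSDRAFT_1050144 and PLEOSDRAFT_1060173, fell from 47.7 ± 18.8 to 8.21 ± 2.46 FPKM (log2 fold change -2.31 ± 0.435, adjusted p = 0.00247) and from 13.9 ± 4.24 to 2.68 ± 0.448 FPKM (log2 fold change -2.14 ± 0.343, adjusted p = 0.00102).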
